A study of Malus domestica with 34 samples.

Results

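The genes described here are 73 apple genes whose RNA in leaves was lower after a first drought than in well-watered plants, and lower again in the well-watered leaves sampled after the third drought than in those sampled after the first. They were chosen by measured values among 52311 gene identifiers. For the choice, each count was scaled to its library's total (CPM, counts per 1000000 counts), and levels were averaged as log2(CPM + 1). A gene was kept when its mean level was at least 1.5 lower in drought leaves than in well-watered leaves at the first sampling, its highest drought value lay below its lowest well-watered value there, and its well-watered mean was at least 0.7 lower at the third sampling than at the first. A further 158 genes met the drought conditions without that second fall, so the 73 are part of 231 genes repressed by the first drought. The rule used 9 leaf libraries, and the other 25 libraries, from leaves and roots, were not used.

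All plants were seedlings of the apple line GDDH18, a doubled haploid of 'Golden Delicious' in which both chromosome copies are alike. Plants of the drought regime, 61 in number and 12 weeks old at the start, went through 3 cycles of drought (3 weeks at 45% soil water content) and rewatering (3 weeks), while 64 well-watered plants were held near 80% throughout. Leaves and roots were collected following the first drought (the first sampling), following the third (the third sampling), and once more in the next year, past a winter and with no new stress. Each combination of tissue, regime and sampling had 3 libraries, from 3 sowing blocks a week apart, except the next-year roots with 2 libraries per regime (blocks 1 and 3 for drought plants, blocks 2 and 3 for well-watered plants). All groups share 1 genotype, and how many plants were pooled into a library is not known here. Because the well-watered plants were also older at the third sampling and were sampled later, plant age, leaf age and growing conditions at that date cannot be told apart.

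Plants short of water close their stomata, slow leaf growth and photosynthesis, and draw on the hormone abscisic acid, and part of this response is a lower abundance of transcripts used in growth. Leaf transcript levels also change as a leaf matures, when expansion and cell division give way to sustained photosynthesis and later to senescence. A gene that is lower both under drought and in later leaves could belong to either programme. The deposited table does not pair its identifiers with gene names, so no function is given for any gene below, the tissues could not be checked against named marker genes, and at most 2 genes in each direction are named per comparison. In whole leaves and roots, fewer cells of a type and less RNA per cell cannot be told apart.

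Leaf libraries totalled 25974815 to 68239819 counts (n = 18) and root libraries 29963017 to 60194325 (n = 16). At the third sampling 3 leaf libraries stood apart from the others. In block 2 of the well-watered leaves the 10 most abundant genes took 29.6% of counts, against at most 8.81% in any other leaf library. In block 3 of the well-watered leaves there were 179 genes at more than 4 times their level in both other libraries of the group, and 159 in block 3 of the drought leaves at that sampling; no other leaf library had more than 86. The values of all 6 leaf libraries of the third sampling are given separately below.

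At the first sampling all 73 genes were lower in drought leaves. This is the contrast that chose them and is given as a description. The mean over the genes of log2(CPM + 1) was 3.25, 3.35 and 3.64 in the drought libraries of blocks 1, 2 and 3, against 5.49, 5.18 and 5.72 in the well-watered libraries. Every gene was lower in drought leaves within each of the 3 blocks. The difference per gene lay between 1.51 and 5.20 on the log2(CPM + 1) scale, with a median of 1.92 and quartiles of 1.68 and 2.24. The genes together made up 0.223% ± 0.046 of leaf counts under drought and 0.928% ± 0.158 in well-watered leaves (SD, n = 3 each). With edgeR's quasi-likelihood test fitted to all 32307 leaf genes that passed the low-count filter, 68 of the 73 were lower at a Benjamini-Hochberg adjusted p under 0.05, where 6.67% of all tested genes were. Nothing is read from that count, since the same values chose the genes. All 73 passed the filter.

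The 2 largest drops were those of MD17G1079900 and MD03G1291200. MD17G1079900 had 4.61, 55.9 and 2.05 CPM in drought leaves of blocks 1, 2 and 3, against 565, 183 and 460 CPM in well-watered leaves, a 36.7-fold lower level in drought from the mean logs. Block 2 had both its highest drought value and its lowest well-watered value. MD03G1291200 had 3.23, 2.87 and 5.74 CPM in drought leaves, against 46.4, 30.4 and 59.9 CPM in well-watered leaves, a 9.37-fold lower level in drought. Its drought libraries lay close together and far below the well-watered ones. Near the threshold, the 3 smallest drops kept were 1.51, 1.51 and 1.52, and the largest of genes left out were 1.49, 1.44 and 1.44.

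**Figure D1:**
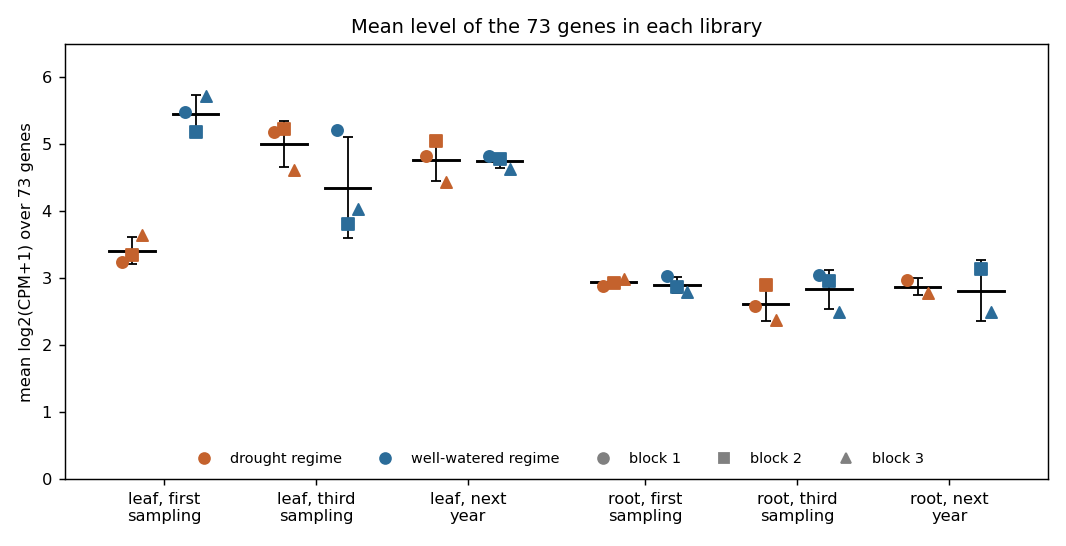
Mean log2(CPM + 1) over the 73 genes in each of the 34 libraries, by tissue and sampling, with the drought regime left of the well-watered regime; each point is a library and its shape marks the sowing block. Leaf values at the first sampling separate by regime, the well-watered leaf libraries of the third sampling spread from 3.81 to 5.22, next-year leaves of both regimes lie between 4.43 and 5.06, and root values stay between 2.38 and 3.14.

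The levels of the genes differed widely. In well-watered leaves of the first sampling the mean level per gene ran from 3.72 to 1988 CPM, with a median of 40.8 CPM. The 5 most abundant genes held 52.9% of the summed CPM of the 73. MD05G1116400, the most abundant, had 408, 388 and 447 CPM in drought leaves, against 1982, 1668 and 2315 CPM in well-watered leaves. Under drought the median over the genes was 9.26 CPM and the lowest mean 0.127 CPM.

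The fall between samplings in well-watered leaves, the rule's second condition, was larger in blocks 2 and 3 than in block 1. The mean level of the 73 genes in the well-watered leaves of the third sampling was 5.22 in block 1, 3.81 in block 2 and 4.04 in block 3. Set against the same block at the first sampling, the genes had a mean difference of -0.26 in block 1, with 40 genes lower and 33 higher. In blocks 2 and 3 the mean differences were -1.37 and -1.68, with 71 and 72 genes lower. With the TMM scaling described below the mean differences were -0.74, -1.32 and -1.79 in blocks 1, 2 and 3, so block 1 showed a fall on that scale. Counted against the mean of the well-watered first sampling, 12 of the 73 genes lay at least 0.7 lower in the block 1 library, 70 in block 2 and 61 in block 3. On CPM 21 genes had all of their well-watered libraries of the third sampling below all of those of the first. The share of all genes so separated was not taken on that scale. With TMM scaling there were 44, where 16.7% of all tested genes were so separated, and nothing is read from either count.

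The leaves of drought plants at the third sampling, which the rule did not use, showed little of the fall in blocks 1 and 2. Their mean levels were 5.18, 5.23 and 4.62 in blocks 1, 2 and 3, against 5.46 ± 0.27 in well-watered leaves at the first sampling (SD, n = 3). In these 3 libraries 10, 13 and 40 genes lay at least 0.7 below the well-watered mean of the first sampling. The mean over the drought libraries lay that far below for 13 of the 73 genes. A level at least 0.7 lower was thus found for most of the genes in well-watered leaves of blocks 2 and 3. It was found for a minority in well-watered leaves of block 1 and drought leaves of blocks 1 and 2. Drought leaves of block 3 lay between. The rule asked for this fall in the well-watered libraries, so a majority there follows from the choice and does not test the label of a fall with age. The drought counts also rest on a first-sampling well-watered mean that was chosen to be high. The share of all genes at least 0.7 lower was not taken. The genes are called the drought-repressed set below, by the first condition of the rule.

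**Figure D2:**
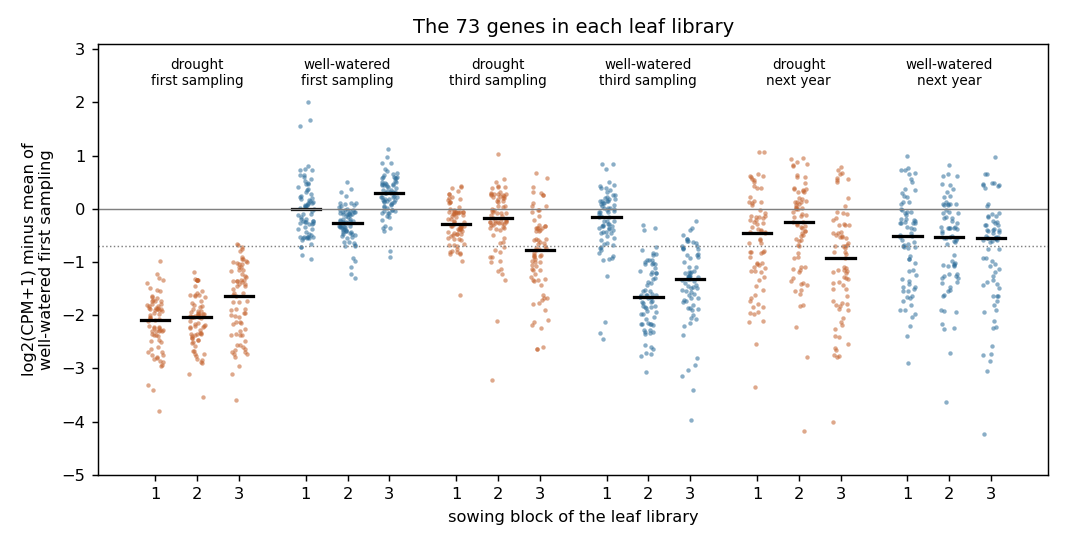
Each gene's log2(CPM + 1) minus its mean in well-watered leaves at the first sampling, for the 73 genes in each leaf library, with the drought regime left of the well-watered regime at each sampling. The dotted line marks -0.7, the size of fall the rule asked for; at the third sampling the well-watered libraries of blocks 2 and 3 lie mostly below it, while the well-watered library of block 1 and the drought libraries of blocks 1 and 2 lie mostly above it.

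Scaling changes the size of this fall. The scaling factors of edgeR (TMM, trimmed mean of M values) were 1.14 to 1.21 for 5 of the 6 leaf libraries of the third sampling and 0.881 for the well-watered library of block 2. Genes averaging at least 1 CPM over all 34 leaf and root libraries were also compared on log2(CPM + 1). In well-watered leaves their median change from the first to the third sampling was 0.36 in block 1, -0.10 in block 2 and 0.07 in block 3. With TMM-scaled CPM the 73 genes lay a mean of 0.59, 0.53 and 1.14 below the first well-watered mean in the drought libraries of the third sampling, against 0.59, 1.59 and 1.68 in the well-watered libraries. At least 0.7 lower were then 29, 18 and 51 genes in the drought libraries and 26, 68 and 70 in the well-watered libraries. The limits given above for the CPM counts apply to these too. On both scales block 1 of the well-watered plants lay near drought blocks 1 and 2 and above well-watered blocks 2 and 3, and drought block 3 lay between. With edgeR 33 of the 73 were lower in well-watered leaves at the third sampling than at the first (adjusted p under 0.05), where 6.98% of all tested genes were lower, and nothing is read from that count because the rule used this contrast. The count was 6 without block 2 of the third sampling and 13 without block 3, 5 without block 1 of the first sampling and 14 without block 2, and 0 with only these groups in the fit. Just inside the threshold the falls were 0.701, 0.721 and 0.722 on log2(CPM + 1), and just outside it 0.687, 0.685 and 0.685.

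At the third sampling the drought leaves were not below the well-watered leaves. The drought-repressed set averaged 5.01 ± 0.34 in drought leaves and 4.36 ± 0.76 in well-watered leaves (SD, n = 3 each). The mean of every gene was higher in the drought leaves, but a choice of genes that are low in these same well-watered libraries pushes the difference that way. The median log2 difference was 0.46, with a range of 0.0011 to 1.596. By edgeR's quasi-likelihood test 0 of the 73 genes were higher or lower at an adjusted p under 0.05, as were 0% of all tested genes; DESeq2 also called 0 of the 73. At an unadjusted p under 0.05 there were 8, where 2.25% of all tested genes passed. Within blocks the mean difference was -0.04 in block 1, 1.42 in block 2 and 0.58 in block 3 on log2(CPM + 1), and 0.0029, 1.05 and 0.54 with TMM-scaled CPM.

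In drought plants the set was higher at the third sampling than at the first. The mean level was 5.18, 5.23 and 4.62 after the third drought, against 3.25, 3.35 and 3.64 after the first. The groups of libraries do not overlap in this mean, and 72, 71 and 56 of the 73 genes were higher within blocks 1, 2 and 3. With edgeR, at an adjusted p under 0.05, 42 genes rose and 0 fell, where 8.57% of all tested genes rose and 7.99% fell, and the median log2 change was 1.44, against 0.00 over all genes. Since the drought libraries of the first sampling chose the genes for low values, this difference is partly fixed by the choice. The other 158 drought-repressed genes, chosen on the same libraries, had a median of 2.43 with 151 called higher. Of the 73, 25 were called without the block 2 library of the third sampling and 50 without block 3, the library that stood apart. The leaves of the first drought held the lowest leaf mean of 67 of the 73 genes, which the choice favours. At the third sampling the drought leaves held that of 0 genes, and the well-watered leaves also that of 0.

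**Figure D3:**
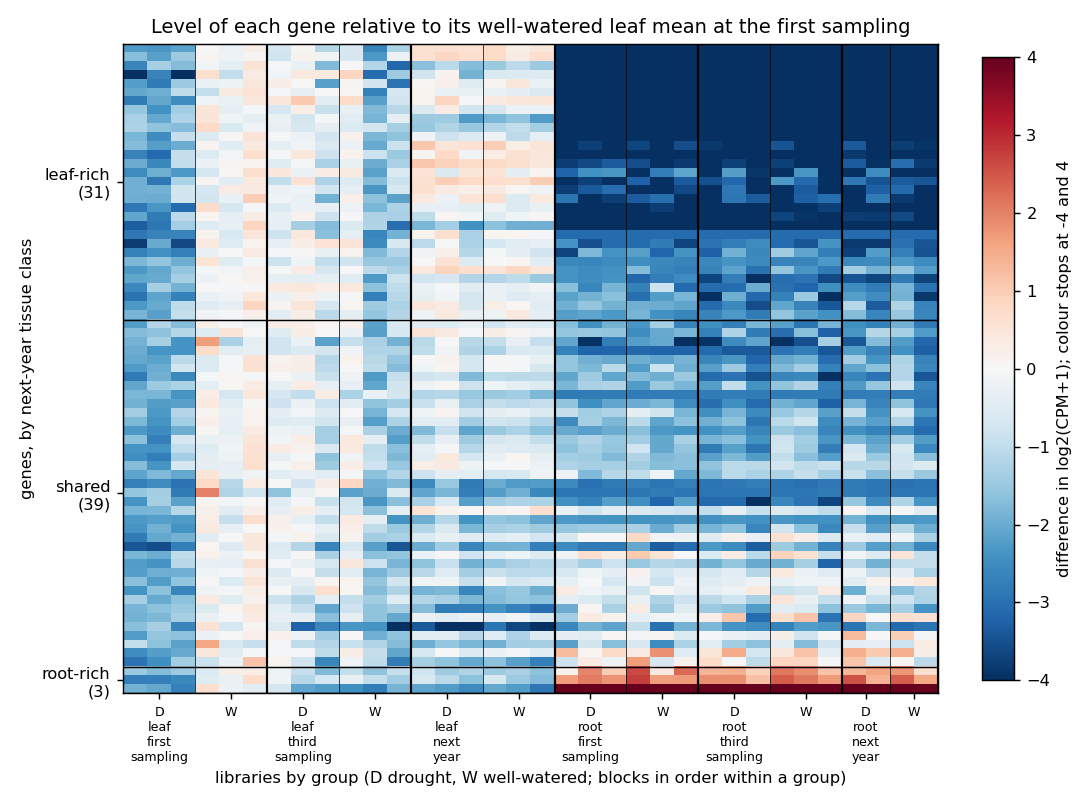
Difference of each of the 73 genes (rows, grouped by next-year tissue class) from its mean in well-watered leaves of the first sampling, in log2(CPM + 1), for all 34 libraries (columns, the drought group left of the well-watered group at each sampling). Blue columns stand out for the drought leaves of the first sampling. In leaves of the third sampling they stand out for the well-watered libraries of blocks 2 and 3. In roots most rows split between genes near the leaf level and genes far below it. The 3 root-rich rows lie above the leaf level.

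In next-year leaves no difference between the regimes was detected. The mean level was 4.83, 5.06 and 4.43 in leaves of the drought plants of blocks 1, 2 and 3, against 4.83, 4.78 and 4.63 in well-watered plants. The drought values lay on both sides of the well-watered ones. The set held 0.898% ± 0.116 of counts in the drought regime and 0.843% ± 0.062 in the well-watered regime (SD, n = 3 each). The rule used none of these 6 libraries. The median log2 difference over the 73 genes was 0.04, with a range of -0.63 to 0.63, and 46 differences were positive and 27 negative. By edgeR's quasi-likelihood test 0 genes of the set were called (adjusted p under 0.05), 0% of all tested genes were called, and 0 of the set had an unadjusted p under 0.05, where 1.10% of all tested genes did. DESeq2 called 0 of the set and 1 gene of all. The median standard error of a log2 difference in this comparison was 0.42. Differences of that size in single genes were not detectable, and larger ones could also go uncalled.

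Levels in the next year were set against those of the first-sampling groups. In the 3 drought libraries 30, 40 and 19 of the 73 genes stood at or above their lowest well-watered value of the first sampling, and in the 3 well-watered libraries 32, 34 and 29. At or below their highest drought value of the first sampling stood 13, 10 and 20 genes in the drought libraries and 14, 11 and 17 in the well-watered libraries. The rule had set these first-sampling values apart, so later levels between them are favoured by the choice. The share of all genes was not taken, and nothing is read from these counts. In well-watered plants 26 genes were lower and 0 higher in the next year than at the first sampling in edgeR's quasi-likelihood test at an adjusted p under 0.05, where 14.4% of all tested genes were lower and 13% higher; the first-sampling libraries had chosen the genes for high values, so nothing is read from it. The median of this log2 change was -0.59. Leaving out a next-year library gave 14 calls (block 3) or 16 (block 1), and leaving out block 1 of the first sampling gave 15.

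From the third sampling to the next year the set moved about as often as other genes in drought plants, a comparison of libraries that the rule did not use. Of the 73 genes, 6 rose and 2 fell in edgeR's quasi-likelihood test at an adjusted p under 0.05, which is 8.22% and 2.74% of the set, where 7.89% and 6.31% of all tested genes did. The median log2 change was 0.10 over the set and -0.04 over all genes, and 39 changes were positive and 34 negative. The 8 calls became 5 without block 1 and 3 without block 3 of the next-year libraries, and 4 without block 1 or block 3 of the third sampling.

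MD16G1236000 showed the largest called rise that met the naming rule. It had 784, 708 and 618 CPM in next-year leaves of drought plants, against 267, 362 and 149 CPM at the third sampling. All next-year libraries were above all third-sampling ones (log2 change 1.73 ± 0.37 SE, adjusted p = 0.00824 by edgeR's quasi-likelihood test). The well-watered leaves had 632, 584 and 501 CPM in the next year, against 303, 93.3 and 151 CPM at the third sampling. That is the same order, but the rule had chosen the genes for low values in those well-watered libraries of the third sampling. The order in well-watered plants is therefore partly fixed by the choice.

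MD11G1116500 had 33.9, 22.5 and 23.9 CPM in next-year leaves of drought plants, against 12.1, 14.2 and 10.2 CPM at the third sampling. The groups did not overlap (log2 change 1.43 ± 0.33 SE, adjusted p = 0.0127 by edgeR's quasi-likelihood test), and the call was lost without block 1 of the next year (adjusted p = 0.0546) or block 3 of the third sampling (adjusted p = 0.0508). Both of these genes were also above their well-watered level of the first sampling, by 0.62 and 0.56 in next-year leaves of well-watered plants on the log2(CPM + 1) scale.

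MD11G1146700 went the other way. It had 2.39, 2.50 and 0.997 CPM in next-year leaves of drought plants, against 11.5, 6.91 and 18.5 CPM at the third sampling (log2 change -2.37 ± 0.51 SE, adjusted p = 0.00855 by edgeR's quasi-likelihood test). The next-year values were all low, close to the drought leaves of the first sampling at 1.35, 2.96 and 1.01 CPM. Without block 3 of the next year its adjusted p was 0.0517 by the same edgeR test. In well-watered leaves it had 2.84, 3.26 and 2.19 CPM in the next year, against 12.0, 2.66 and 4.28 CPM at the third sampling. Those groups overlapped, and the rule had chosen low values in the well-watered libraries of the third sampling. MD03G1207400 had 36.9, 37.97 and 20.7 CPM in the next year, against 85.7, 61.6 and 98.5 CPM at the third sampling (log2 change -1.08 ± 0.34 SE, adjusted p = 0.0455 by edgeR's quasi-likelihood test). Its groups did not overlap, but the call was lost without the low-count filter (adjusted p = 0.0561 with edgeR) and without any library of the comparison except block 2 of the third sampling (adjusted p of 0.0647 to 0.175). In well-watered leaves its groups overlapped, with 28.4, 32.6 and 21.1 CPM in the next year, against 74.4, 27.7 and 77.7 CPM at the third sampling.

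In well-watered plants the next-year leaves stood above the low third-sampling libraries. There 11 genes were higher and 1 lower in the next year than at the third sampling in edgeR's quasi-likelihood test at an adjusted p under 0.05, where 9.82% and 11.2% of all tested genes were. Within blocks the mean difference was -0.39 in block 1, 0.97 in block 2 and 0.60 in block 3. The rule chose the genes for low values in these third-sampling libraries, and without the block 1 library 28 were called. The share of all genes called in that fit is not given here, so nothing is read from the rise.

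Roots showed no detectable drought response of the set. The mean level was 2.94 ± 0.05 in drought roots and 2.91 ± 0.12 in well-watered roots at the first sampling (SD, n = 3 each), 2.62 ± 0.26 and 2.84 ± 0.29 at the third (SD, n = 3 each), and 2.88 ± 0.13 and 2.82 ± 0.45 in the next year (SD, n = 2 each). Of the 73 genes, 63 passed the low-count filter among 33541 root genes. By edgeR's quasi-likelihood test 0 of the 63 differed between the regimes at any sampling (adjusted p under 0.05), and 0% of all root genes did. DESeq2 called 0 of the 63 as well, and at the first sampling and in the next year 0 of them had an unadjusted p under 0.05, where 1.01% and 2.20% of all root genes did. The median log2 difference was -0.12 at the first sampling, with 42 of 63 negative, and 0.17 in the next year, with 42 of 63 positive. Neither direction was steady: the median was 0.07 at the first sampling without well-watered block 1, and in the next year it ran from -0.11 to 0.94 as each library was left out.

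At the third sampling the median root difference was -0.41, and 50 of 63 genes were lower in drought roots, where the median of all root genes was 0.00. The mean level was 2.58, 2.90 and 2.38 in drought roots of blocks 1, 2 and 3, against 3.05, 2.96 and 2.50 in well-watered roots. The drought root was lower in each block, by 0.06 to 0.47, while the ranges of both regimes overlapped. Of the 63 genes, 1 had an unadjusted p under 0.05, against 2.79% of all root genes, and the smallest adjusted p of the set was 0.99997 by edgeR's quasi-likelihood test. The other drought-repressed leaf genes had a median of -0.49 in the same comparison (122 tested), a shift of like size. As each library was left out the median of the set stayed between -0.67 and -0.24. The median standard error per gene was 0.55, so differences of that size in single genes were not detectable. Larger ones could also go uncalled: the gene with an unadjusted p under 0.05 had a log2 difference of -1.40 ± 0.52 SE.

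Over time in roots, edgeR's quasi-likelihood test called 0 of the 63 genes between samplings in either regime (adjusted p under 0.05). The median log2 change from the first to the third sampling was -0.28 in drought roots and -0.04 in well-watered roots. From the third sampling to the next year it was 0.39 in drought roots, with 48 of 63 positive, and -0.10 in well-watered roots. In that last drought comparison 12 of the 63 genes had an unadjusted p under 0.05, where 13.5% of all root genes did, and in the well-watered one 5 had, where 9.70% did; of all root genes edgeR called 0.00894% higher and 0.0239% lower in the drought comparison and 0.0358% higher and 0.0477% lower in the well-watered one. At the third sampling against the first, 4 of the 63 had an unadjusted p under 0.05 in drought roots, where 7.85% of all root genes did, and 3 had in well-watered roots, where 5.58% did; 0% of all root genes were called in either. DESeq2 called 0 of the 63 in all of these, where of all root genes it called 58 in drought and 24 in well-watered roots for the third sampling against the first, and 689 in drought and 574 in well-watered roots for the next year against the third sampling. The mean difference of drought roots at the third against the first sampling was -0.31, -0.03 and -0.61 in blocks 1, 2 and 3.

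Most of the set was higher in leaf than in root. In the next year, with both regimes averaged, 54 of the 73 genes were higher and 8 lower in leaf by edgeR's quasi-likelihood test on all 34 libraries (adjusted p under 0.05), where 34.3% of all 35665 tested genes were higher and 36.3% lower. The median log2 difference of leaf over root was 2.42 for the set and -0.02 for all genes. In drought plants at the third sampling 56 were higher and 3 lower in leaf, where 27% and 28.1% of all tested genes were, with a median of 2.85. Genes repressed by drought in leaves must be present in leaves, so part of this surplus follows from the choice. The other 158 drought-repressed genes had 103 higher and 27 lower in next-year leaves, with a median of 3.02.

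Some of the genes were nearly absent from roots. MD05G1116400 had 2986, 3003 and 2912 CPM in next-year leaves of drought plants and 3254, 2340 and 2690 CPM in those of well-watered plants. In next-year roots it had 0.0745 and 0.0390 CPM in drought plants and 0.189 and 0.147 CPM in well-watered plants, which were 5 and 17 counts in all. The fitted log2 difference of leaf over root was 15.19 ± 1.06 SE (adjusted p = 1.80e-12 by edgeR's quasi-likelihood test), and its exact size rests on those few root counts. This gene, at 388 to 447 CPM in leaves of the first drought, was still far above its level in every root library.

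MD10G1118600 was similar, with 902, 1038 and 934 CPM in next-year leaves of drought plants and 974, 733 and 932 CPM in those of well-watered plants, against 0.0496 and 0 CPM in drought roots and 0.0689 and 0.0491 CPM in well-watered roots (log2 difference 14.87 ± 0.84 SE, adjusted p = 2.28e-14 by edgeR's quasi-likelihood test). MD04G1234800 had 49.1, 74.5 and 26.8 CPM in leaves of drought plants at the third sampling and 0 counts in the 3 roots. Against a floor of 3 counts over the root group its leaf level was at least 2142-fold higher. Over the set, 20 genes averaged under 1 CPM in roots, 5 had 0 counts in all libraries of some group, and 1 had 0 counts in every root library.

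On the other side stood 3 genes whose mean log2(CPM + 1) was higher in root than in leaf by at least 2. MD16G1159900 had 0.762, 0.648 and 0.323 CPM in next-year leaves of drought plants and 0.876, 0.632 and 0.0591 CPM in those of well-watered plants, against 1106 and 1261 CPM in roots of drought plants and 1079 and 605 CPM in roots of well-watered plants. Its log2 difference of leaf over root was -10.39 ± 0.66 SE (adjusted p = 2.42e-13 by edgeR's quasi-likelihood test). The leaf values that brought it into the set were 1.09, 0.875 and 0.182 CPM in drought leaves of the first sampling, against 10.9, 5.58 and 4.78 CPM in well-watered leaves. Root levels at the same sampling were 720, 635 and 666 CPM under drought and 1414, 613 and 850 CPM in well-watered plants, so its leaf level was at every sampling a small fraction of its root level. MD10G1222900 had 2.14, 1.05 and 1.37 CPM in next-year leaves of drought plants and 1.07, 1.23 and 0.768 CPM in those of well-watered plants, against 12.9 and 15.6 CPM in drought roots and 17.8 and 7.59 CPM in well-watered roots (log2 difference -3.03 ± 0.45 SE, adjusted p = 1.40e-06 by edgeR's quasi-likelihood test).

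**Figure D4:**
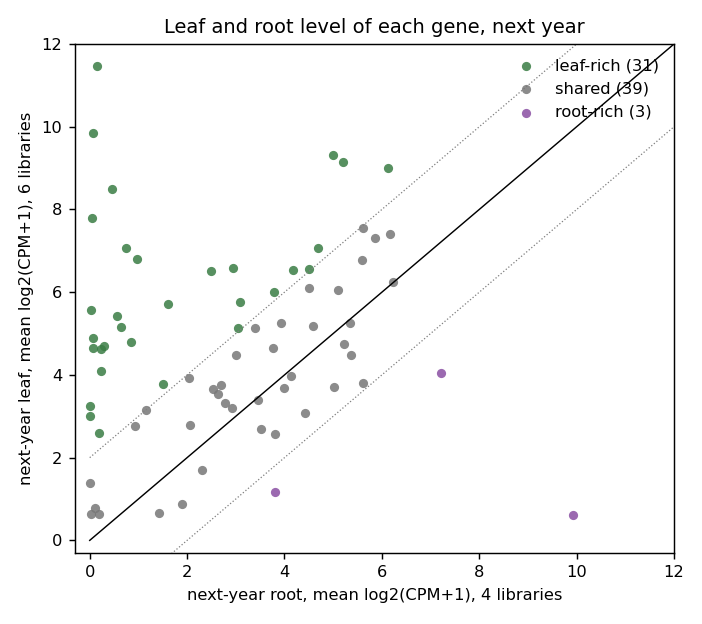
Mean log2(CPM + 1) of each of the 73 genes in next-year leaves (vertical axis, 6 libraries) against next-year roots (horizontal axis, 4 libraries), coloured by tissue class. The 31 leaf-rich genes lie along the upper left, the 39 shared genes near the diagonal and the 3 root-rich genes at the lower right, with MD16G1159900 farthest out.

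A split by tissue in the next year, at 2 units of mean log2(CPM + 1) between leaf and root, gave 31 leaf-rich genes, 39 shared by both tissues and 3 root-rich. Leaf-rich genes had a median of 55.7 CPM in next-year leaves and 0.705 CPM in roots, and shared genes 12.2 CPM in leaves and 10.9 CPM in roots. The classes were alike in the conditions of the rule: the median first-sampling drop was 1.97 in leaf-rich and 1.89 in shared genes, and the median fall between samplings 1.07 and 0.96.

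The level after winter was set against the first sampling. A gene was counted as back when its mean in next-year well-watered leaves was within 0.5 of its well-watered mean at the first sampling, or above it, on log2(CPM + 1). Of all 73, 37 were back (35 with TMM-scaled CPM). They were 24 of the 31 leaf-rich genes, 13 of the 39 shared genes and 0 of the 3 root-rich genes. The tissue class and the return both used next-year leaves, so a high next-year leaf value raises a gene in both. The rule had also chosen the genes for high values in well-watered leaves of the first sampling, which makes a return harder to reach: of all 32307 tested leaf genes 85.2% were back. With classes taken instead from leaves and roots of drought plants at the third sampling, 25 of 42 leaf-rich genes were back (59.5%), 12 of 28 shared genes (42.9%) and 0 of 3 root-rich genes, a smaller contrast. With the same classes 87.7% of all leaf-rich, 86.5% of all shared and 61.8% of all root-rich tested leaf genes were back. No test was made of these counts, and nothing is read from them.

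Across the 6 leaf groups 50 of the 73 genes had their highest mean in well-watered leaves of the first sampling, 13 in next-year leaves of drought plants, and 5 each in leaves of drought plants at the third sampling and next-year leaves of well-watered plants. The rule favours the first number, since it placed those leaves above drought leaves of the first sampling and well-watered leaves of the third. The other 23 genes had a higher mean in a later leaf group than in those leaves. In roots the highest mean was spread over the groups, with 22 genes in drought roots of the first sampling and 3 to 16 in each of the other 5 groups; 1 gene had no root count.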

How the data were processed

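RNA of leaves and roots was sequenced as 100 bp pairs from stranded mRNA libraries, per the labels' protocols. The authors deposited estimated counts per gene, already whole numbers, for 34 libraries; FastQC, Salmon, DESeq and DESeq2 are named, with no version, in the submitters' processing notes. Salmon divides reads between similar transcripts, which makes values of near-identical copies uncertain. Genome build, annotation and settings are not given in the sources used here. None of the identifiers (0) matched the RefSeq gene table of GDT2T_hap1, so no names, coordinates or sequences are given.

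The members and lists were chosen with earlier results of these data known. Counts were tested with edgeR 4.0.16 in R 4.3.3 (TMM, filterByExpr, glmQLFit with robust dispersions, glmQLFTest), fitting all groups of a tissue together and all 34 libraries for leaf against root, with Benjamini-Hochberg adjusted p under 0.05 as the call over all genes tested. The standard error was the log2 change divided by the square root of F. Changes and calls use TMM scaling, and levels use CPM of the column sums. Tests were also run on simulated counts without block effects or libraries that stand apart, and no result given here rests on that run. Named genes were the 2 largest drops of the first drought and, per comparison of libraries outside the rule, up to 2 called genes in each direction without overlap between the groups and at a mean log2 CPM of 1 or more. DESeq2 1.42.0, RLE scaling, other filters, only the groups compared, the sowing block as a term and each library left out were alternatives.

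Per the labels, replicate numbers stand for sowing blocks, so same-numbered libraries are paired. Their deviations from the group means correlated at 0.24 to 0.75 in the leaf samplings and 0.30 to 0.76 in roots of the third sampling, but at -0.81 to -0.31 in roots of the first. No 2 libraries of a group agreed within sampling noise: over 32 pairs the smallest chi-square per gene was 25.9.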

Additional observations from a re-analysis of the deposited data

How the results depend on the processing

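The rule found 30 genes with a drop of at least 2, 40 with a fall of at least 1, 55 with a pseudocount of 2, 97 with 0.5, and 102 with TMM-scaled CPM, 72 of them among the 73. Leaving out each of its 9 libraries gave 43 to 124 genes: 124 without well-watered block 1 of the third sampling, 43 without block 2 (39 shared with the 73) and 55 without block 3 (49 shared). An alternative chosen after seeing the data, TMM-scaled CPM without that block 2 library, gave 86, of which 63 were shared. For well-watered leaves at the third against the first sampling, the 33 calls became 0 with only those groups fitted and 5 to 45 with a library left out. Among all tested genes the 4876 calls became 5 with only those groups fitted and 894 to 6227 with a library left out. The cause was not tested. Leaving out a library gave 25 to 50 calls for drought leaves at the third against the first sampling, 3 to 10 for drought leaves in the next year against the third sampling (13 with DESeq2), 8 to 28 for well-watered leaves in the same comparison, and 14 to 25 for well-watered leaves in the next year against the first sampling; the cause was not tested. Leaf drought calls of the first sampling ranged from 50 to 67, and those of leaf against root from 57 to 61 in the next year and 56 to 59 at the third sampling. Drought comparisons called 0 at later leaf samplings and at every root sampling under each alternative run. With the replicate block as a term the calls were 67 for the first leaf drought and 9 for drought leaves after winter. For the third against the first sampling they were 38 in drought leaves and 37 in well-watered leaves. They were 63 for leaf against root in the next year. The block changed no call of a named gene. Named genes of comparisons outside the rule kept their direction with each library left out. Besides those of roots given above, some medians of the set changed sign. In next-year leaves the drought difference ran from -0.13 to 0.20. For the next year against the third sampling medians ran from -0.09 to 0.20 in drought leaves and -0.74 to 0.31 in well-watered roots. The third against the first sampling ran from -0.21 to 0.20 in well-watered roots.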
